A study of Mus musculus with 50 samples.

Results

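Mouse embryonic stem cells lacking Ythdf1 were compared directly with cells lacking Ythdf3 at 0 h, before any time in the transcription blocker actinomycin D had passed. The comparison used 8 of the 50 libraries of the series, chosen by the genotype and time in their labels: 4 labelled Ythdf1_KO and 4 labelled Ythdf3_KO. Both knockouts were in KH2, a stem cell line of C57BL/6 x 129/Sv background, kept in serum with LIF. The cells had been on gelatin for 48 h when they were collected, feeder cells were not named, and 5 µM actinomycin D was added only for later times. The 8 libraries came from replicates A and B of each knockout, each sequenced as a pair of duplicate libraries, and the values of 4 libraries are given below in the order A, A, B, B. Labels gave neither the edited part of each gene, nor the number of clones behind a knockout, nor whether A and B were separate cultures. With n = 2 replicates per knockout (duplicates averaged first), the p-values rest on variation that could be purely technical.

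YTHDF1, YTHDF2 and YTHDF3 are closely related cytoplasmic proteins whose YTH domain binds N6-methyladenosine (m6A), a methyl mark on adenosines of mRNA that is frequent near stop codons and in 3′ untranslated regions. The family is best known for shortening the life of marked transcripts by recruiting deadenylases, and individual members have also been linked to translation. In embryonic stem cells m6A is known for limiting the life of transcripts that maintain pluripotency. The series asks how far the readers stand in for one another, and a direct contrast of 2 single knockouts shows where losing one differs from losing the other, without routing each through the same WT libraries.

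Levels were measured by sequencing the 3′ ends of poly(A) RNA and are in FPM, reads scaled to a common library total, with no length correction. Library totals ran from 1369330 to 2341410 reads, so that 1 read was worth 0.427 to 0.73 FPM, and low genes rest on few reads. The genes listed in the table held 43.9 ± 0.365% of the reads in Ythdf1_KO and 43.8 ± 0.648% in Ythdf3_KO (SD, n = 4 libraries), a difference that did not pass a two-sided exact permutation test (p = 0.914, the smallest possible being 0.0286). That test permuted single libraries, although duplicates of a replicate are not independent, so neither p holds for replicates as units. One Ythdf1_KO library of replicate B, 4f, stood somewhat apart. Chi-square per degree of freedom of its reads was 1.61 to 1.69 against the other Ythdf1_KO libraries, whereas the other pairs of libraries from one knockout gave 1.34 to 1.44. Pairs from different knockouts gave 1.6 to 2.08.

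The readers themselves did not differ past the test. Ythdf1 (chromosome 2, 180904377 to 180920936) had 64.9, 54.2, 51.1 and 57.3 FPM in the Ythdf1_KO libraries and 45.3, 44.9, 56.8 and 58.1 FPM in those of Ythdf3_KO, and the ranges overlapped. Its log2 difference, Ythdf1_KO minus Ythdf3_KO, was 0.15 ± 0.12 (SE from limma, adjusted p = 0.664). For Ythdf3 (chromosome 3), which the table lists only by a noncoding transcript, the means were 25.9 ± 2.25 and 23.8 ± 3.59 FPM (0.13 ± 0.18, adjusted p = 0.843). Since 3′ reads can lie outside an edited part, neither gene's level is a test of its knockout or of the labels. Ythdf2, which neither label names as edited, had 66.6, 77.8, 66.5 and 58.6 FPM in Ythdf1_KO and 60.4, 56.1, 42.6 and 53.5 FPM in Ythdf3_KO. Its difference of 0.34 ± 0.12 missed the threshold (adjusted p = 0.0948). Of the 11 m6A readers tested, of 11 writers and erasers and of 22 deadenylation and decapping genes, 0 were called by limma, edgeR or DESeq2, with 4, 0 and 1 at an unadjusted p under 0.05 in limma. Their medians were 0.15, 0.11 and -0.06. Over all 8560 genes tested, 1143 had an unadjusted p under 0.05 in limma and 2.63% were called. The reader list summed to 804 to 854 FPM in Ythdf1_KO and to 728 to 763 FPM in Ythdf3_KO, ranges that were not tested.

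Across 8560 genes tested, 225 were called at an adjusted p under 0.05 (2.63% of genes tested): 131 were higher in Ythdf1_KO than in Ythdf3_KO (1.53%) and 94 lower (1.1%). The median of all genes was 0.02. The higher genes had a median size of 0.52 on the log2 scale and 21 of them reached a difference of 1. The lower genes were smaller in effect and more abundant, with a median size of 0.30, 4 that reached 1, and a median level of 196 FPM against 65.4 FPM. The 4 libraries of one knockout lay wholly above the 4 of the other for 96 of the 131 and 66 of the 94, and over all genes tested for 4.12% in the higher and 2.44% in the lower direction. Scaling by TMM factors changed the split to 106 higher and 138 lower, and scaling to a common median to 92 and 145. Without the filter on low values 33 genes were called, of which 4 were among the 225 and 2 were list members, and DESeq2 called 56, all among the 225. A fit of Ythdf1_KO and Ythdf3_KO alone called 174, of which 173 were among the 225. The count was 205 without Ythdf1_KO replicate A, 129 without Ythdf1_KO replicate B, 90 without Ythdf3_KO replicate A, 112 without Ythdf3_KO replicate B and 192 without library 4f.

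**Figure D1:**
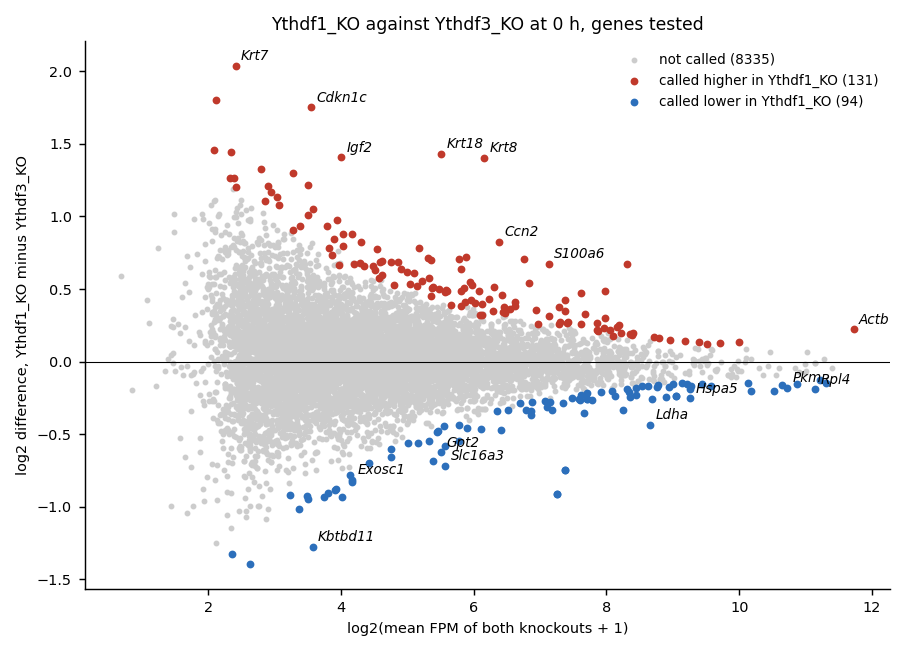
Log2 difference, Ythdf1_KO minus Ythdf3_KO at 0 h, of the 8560 genes tested (vertical axis) against their mean level in both knockouts as log2(FPM + 1) (horizontal axis). The 131 genes called higher (red) include the keratins Krt8 and Krt18, and the 94 called lower (blue) lie mostly among abundant genes, where a smaller difference passes the test.

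The WT libraries were not part of the contrast, but they show where each called gene stood. The WT mean lay between the 2 knockout means for 89 of the 131 higher and 60 of the 94 lower genes. Among the higher genes it was nearer to Ythdf1_KO for 59 and to Ythdf3_KO for 72. Among the lower genes it was nearer to Ythdf1_KO for 68 and to Ythdf3_KO for 26. These are positions of means, with no test.

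Both knockouts carried the defining markers of embryonic stem cells at similar levels. Pou5f1, the Oct4 gene at the centre of pluripotency, ran from 710 to 870 FPM over the 8 libraries, Sox2, its partner, from 128 to 151 FPM, and Esrrb, a naive pluripotency factor, from 204 to 268 FPM. Zfp42, Sall4, Dppa5a and Utf1 were likewise present in all 8 libraries, and these 7 markers did not pass the test (adjusted p 0.248 to 0.942). Nanog was listed at only 0 to 2.92 FPM in both knockouts and fell below the filter. Of 25 naive pluripotency genes 1 was higher and 1 lower (median -0.03), and of 18 core genes 1 was higher (median 0.04). Here and for every later list, the shares over all genes tested were 1.53% higher and 1.1% lower. Tdgf1, the Cripto coreceptor of Nodal signalling, was lower: 388, 401, 328 and 385 FPM against 430, 451, 438 and 471 FPM (-0.26 ± 0.05, adjusted p = 1.59e-04), with no overlap. Trim28, the corepressor that silences retroelements, was higher by 0.13 ± 0.04 (adjusted p = 0.0313), and Dnmt3b, a de novo DNA methyltransferase, by 0.45 ± 0.14 (adjusted p = 0.0486). Trim28 and Dnmt3b were also the 2 called members of the 13 DNA methylation genes tested (median 0.05). Both calls ended under both other scalings, in edgeR and when either Ythdf3_KO replicate or Ythdf1_KO replicate B was left out, and that of Tdgf1 ended without Ythdf1_KO replicate B.

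Keratins and other epithelial genes showed the clearest difference, and all of those called were higher in Ythdf1_KO. Of the 17 genes tested from a list of trophectoderm and epithelial keratin genes, 9 were higher and 0 lower, and all 17 values were above 0 (median 0.62). Krt7, Cldn6, Cldn7, Gata2, Ascl2 and Tead4 averaged under 5 FPM in Ythdf3_KO and passed the filter through other knockouts, which can favour values above 0. Among members below the filter, Cdx2, Hand1, Dsp and Plac1 averaged higher in Ythdf1_KO and Tfap2a lower (1.27 against 1.51 FPM). Krt8 and Krt18 pair to form the keratin filaments of simple epithelia. Krt8 (chromosome 15) had 108, 102, 96.4 and 104 FPM in Ythdf1_KO and 43.0, 33.7, 42.1 and 34.7 FPM in Ythdf3_KO, a difference of 1.40 ± 0.10 (adjusted p = 1.84e-44). Krt18 (chromosome 15) had 61.9, 72.3, 62.8 and 63.7 FPM against 18.6, 23.0, 27.3 and 26.0 FPM, a difference of 1.43 ± 0.12 (adjusted p = 3.62e-30). In neither keratin did any library of one knockout reach the level of the other, and the WT means, 75.4 ± 5.32 and 34.4 ± 3.83 FPM, lay in between. The means in Ythdf2_KO and Triple_KO were 103 and 145 FPM for Krt8 and 60.6 and 101 FPM for Krt18. A level above WT was therefore not particular to Ythdf1_KO. Krt8 was one of 2 named genes, with S100a6, that remained called under every alternative.

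Krt7, a further simple epithelial keratin, had 8.97, 10.4, 4.38 and 6.37 FPM in Ythdf1_KO and 2.32, 1.07, 0.526 and 0.51 FPM in Ythdf3_KO (2.04 ± 0.37, adjusted p = 1.11e-05), the last values being 1 to 4 reads. Krt19 had 14.1, 18.1, 21.2 and 23.6 FPM against 6.97, 11.2, 11.6 and 7.65 FPM (0.97 ± 0.22, adjusted p = 0.00107), a call that ended without Ythdf1_KO replicate B. Neither pair of ranges overlapped. Perp, a desmosomal protein that p53 also induces, had 47.4, 47.3, 51.1 and 54.1 FPM against 30.8, 30.4, 27.9 and 32.1 FPM (0.70 ± 0.13, adjusted p = 4.26e-05), and WT stood above both at 56.8 ± 9.93 FPM. The adhesion gene Cdh1 (0.23 ± 0.06), the tight junction claudins Cldn4 (0.39 ± 0.09) and Cldn7 (1.20 ± 0.34) and the galectin Lgals3 (0.46 ± 0.10) were also higher (adjusted p at most 0.0198). Libraries of Cldn4 overlapped between the knockouts, and Cldn7, at means of 6.43 and 2.28 FPM, rests on few reads.

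The transcription factors that define trophectoderm were low or not called. Cdx2, Hand1 and Tfap2a were below the filter and Elf5 was listed at 0 in all 8 libraries. Eomes was at 5.13 ± 1.66 and 4.54 ± 2.44 FPM, and it and Gata3, Gata2 and Tfap2c were not called. The summed level of the whole list was 800 to 857 FPM in Ythdf1_KO and 566 to 587 FPM in Ythdf3_KO. The part that a few cells of another type may have in this result was not tested, and in bulk RNA more cells with a transcript and more transcript per cell cannot be told apart. The count was 5 without Ythdf1_KO replicate B and 4 in DESeq2.

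**Figure D2:**
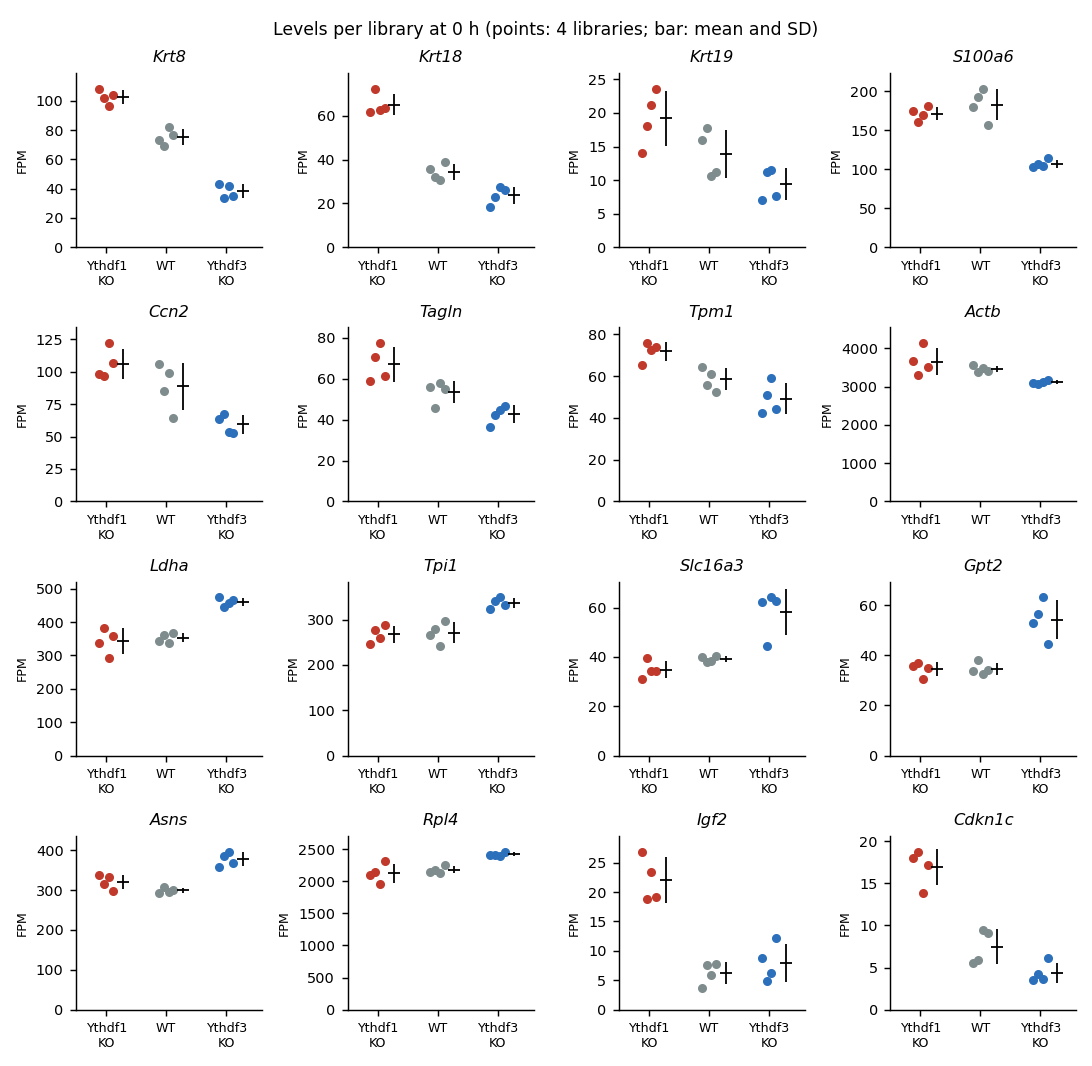
FPM per library at 0 h for 16 named genes in Ythdf1_KO (red), WT (grey) and Ythdf3_KO (blue), 4 libraries each as points, with the mean and SD as a bar; each vertical axis starts at 0. The keratin and actin genes plotted are higher in Ythdf1_KO than in Ythdf3_KO, the glycolysis and amino acid response genes plotted are lower, and Igf2 and Cdkn1c stand above both WT and Ythdf3_KO in Ythdf1_KO.

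Genes of the actin cytoskeleton were called in the same direction. Of 27 tested, 10 were higher and 0 lower, and 26 values were above 0 (median 0.28). Actb, cytoplasmic beta-actin, was the most abundant: 3665, 3314, 4133 and 3502 FPM in Ythdf1_KO and 3102, 3059, 3121 and 3184 FPM in Ythdf3_KO (0.22 ± 0.02, adjusted p = 9.05e-25), with no overlap. Tagln, an actin-binding protein of contractile cells, had 58.9, 70.9, 77.4 and 61.1 FPM against 36.6, 42.2, 44.7 and 46.9 FPM (0.64 ± 0.11, adjusted p = 3.83e-06). Tpm1, the tropomyosin that coats actin filaments, had 65.3, 75.8, 72.3 and 73.9 FPM against 42.4, 50.7, 58.9 and 44.3 FPM (0.55 ± 0.10, adjusted p = 3.05e-05). Both genes separated the knockouts without overlap. Acta2, smooth muscle actin, was at 91.7 ± 3.69 against 64.1 ± 4.27 FPM (0.51 ± 0.10, adjusted p = 4.41e-05). The crosslinker Flna (0.35 ± 0.07), lamin A, Lmna (0.48 ± 0.11), annexin Anxa2 (0.48 ± 0.12), the myosin light chain Myl12a (0.31 ± 0.08), calponin Cnn2 (0.38 ± 0.11) and the alpha-actinin Actn4 (0.22 ± 0.06) completed the 10, with adjusted p at most 0.0299. The count was 5 without Ythdf3_KO replicate A and 5 in DESeq2.

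Several of these genes are also expressed by fibroblasts, so a list of fibroblast feeder markers was read beside them. Of 20 tested, 8 were higher and 0 lower (median 0.45), Acta2 and Tagln being shared with the actin list. S100a6, a calcium-binding protein, had 175, 161, 169 and 181 FPM against 103, 107, 104 and 114 FPM (0.67 ± 0.08, adjusted p = 1.52e-14). Ccn2, the connective tissue growth factor, had 98.2, 96.6, 122 and 106 FPM against 63.9, 67.3, 53.6 and 52.5 FPM (0.83 ± 0.10, adjusted p = 1.90e-14), and neither gene overlapped. Its relative Ccn1 was at 43.3 ± 5.65 against 29.2 ± 4.84 FPM (0.56 ± 0.14, adjusted p = 0.00615). Vimentin, Vim (0.41 ± 0.09), the collagen Col1a1 (0.68 ± 0.18) and Anxa1 (1.08 ± 0.27) were also higher (adjusted p at most 0.0114).

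Matrix genes of fibroblasts were divided. Lum was listed at 0 in all 8 libraries, Dcn did not exceed 0.730 FPM in either knockout, and Col3a1 averaged 0.555 FPM in Ythdf1_KO and 0.671 FPM in Ythdf3_KO. Col1a1, by contrast, was at 28.6 ± 7.26 against 17.3 ± 3.91 FPM and called higher, and Fn1 (fibronectin), at 213 ± 25.3 against 194 ± 11.6 FPM, and Timp1 were well above the filter and not called. The list summed to 1024 to 1168 FPM in Ythdf1_KO and 779 to 826 FPM in Ythdf3_KO, and its part in the differences above was not tested. Calls ended for Ccn1 and Anxa1 without Ythdf3_KO replicate B, for Ccn1 also without Ythdf1_KO replicate B and for Anxa1 without Ythdf1_KO replicate A. The count was 5 without Ythdf3_KO replicate B and 4 in DESeq2.

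Among glycolysis and hypoxia genes the calls went the other way. Of 32 tested, 0 were higher and 11 lower in Ythdf1_KO than in Ythdf3_KO, with a median of -0.18. Ldha, which turns pyruvate into lactate, had 338, 383, 291 and 357 FPM in Ythdf1_KO and 474, 444, 457 and 466 FPM in Ythdf3_KO (-0.43 ± 0.05, adjusted p = 1.67e-14). Slc16a3, the MCT4 transporter that exports lactate, had 31.2, 39.6, 34.3 and 34.4 FPM against 62.1, 44.3, 64.2 and 62.7 FPM (-0.72 ± 0.13, adjusted p = 1.70e-05). Tpi1, triose phosphate isomerase, had 246, 277, 260 and 289 FPM against 324, 341, 349 and 333 FPM (-0.33 ± 0.06, adjusted p = 1.63e-06). None of these 3 overlapped between the knockouts, and their WT means of 353, 39.2 and 271 FPM were close to Ythdf1_KO. Pkm, pyruvate kinase, was at 1589 ± 88.1 against 1798 ± 34.9 FPM (-0.18 ± 0.03, adjusted p = 6.31e-08). The enzymes Pgk1 (-0.35 ± 0.07), Eno1 (-0.24 ± 0.05), Pgam1 (-0.21 ± 0.06) and Aldoa (-0.15 ± 0.03), the cytokine Mif (-0.24 ± 0.06), the mTORC1 inhibitor Ddit4 (-0.56 ± 0.13) and the mitophagy receptor Bnip3 (-0.93 ± 0.23) were lower too, with adjusted p at most 0.0282. The list summed to 6312 to 6662 FPM in Ythdf1_KO and 7274 to 7441 FPM in Ythdf3_KO. The count was 7 without Ythdf3_KO replicate A, 7 without Ythdf3_KO replicate B and 7 in DESeq2.

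Many genes of this list carry the letters ACGTG, the core of the element through which hypoxia-inducible factors act, near their start. RefSeq promoters of GRCm38.p6 (250 bases before to 50 after the start) were searched on both strands. The letters were present in 21 of 29 tested list members with a promoter (72.4%), in 9 of the 11 called (81.8%) and in 31.3% of the 6849 promoters of all genes tested. Over all called genes with a promoter, the letters were in 31 of 66 lower (47.0%) and 31 of 100 higher genes (31%). The list holds known targets of these factors, and the shares were not tested. The following stretches show 5 of the matches, with ACGTG in capitals, read along the gene's strand.
Ldha, chr7:46845648-46845676, plus strand: gtgtcgcagcacACGTGgagccactcttg
Slc16a3, chr11:120949028-120949056, plus strand: caggcagcggtgACGTGcgcgggggacgt
Pgk1, chrX:106186938-106186966, plus strand: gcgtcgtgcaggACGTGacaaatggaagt
Pgam1, chr19:41911745-41911773, plus strand: cgctccttgcttACGTGcgctccgtgact
Bnip3, chr7:138909597-138909625, minus strand: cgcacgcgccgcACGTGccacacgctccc
The Ldha match begins 144 bases before the start and the Slc16a3 match 27 bases before it. A match is a description of the letters and says nothing about binding in these cells.

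Targets of the integrated stress response, the ATF4 program that senses scarce amino acids and unfolded protein, had 6 lower and 0 higher members among 38 tested. Of the 38 values 30 were below 0 and 8 above, with a median of -0.13. Atf4 itself (adjusted p = 0.224) and its targets Trib3, Chac1 and Psat1 (adjusted p = 0.935, 0.0915 and 0.459) were among the 32 that did not pass. Gpt2, the mitochondrial alanine aminotransferase, had 35.9, 36.8, 30.7 and 35 FPM in Ythdf1_KO and 52.8, 56.6, 63.1 and 44.3 FPM in Ythdf3_KO (-0.63 ± 0.13, adjusted p = 4.39e-04). Asns, asparagine synthetase, had 337, 316, 334 and 298 FPM against 359, 385, 397 and 368 FPM (-0.23 ± 0.05, adjusted p = 0.00103). Neither gene overlapped, and both WT means (34.6 and 299 FPM) were near or below Ythdf1_KO. Psph of serine synthesis (-0.47 ± 0.12), the methionine tRNA synthetase Mars1 (-0.26 ± 0.07), the translation inhibitor Eif4ebp1 (-0.18 ± 0.05) and the stress factor Ddit3, also called CHOP (-0.28 ± 0.08), were lower as well, with adjusted p at most 0.0369. The count depended on the scaling and the test: it was 9 with TMM or median scaling, 10 in edgeR, 2 in DESeq2, 4 without either Ythdf1_KO replicate and 2 without either Ythdf3_KO replicate. Calls ended for Psph without Ythdf1_KO replicate B or either Ythdf3_KO replicate, for Mars1 without replicate A of either knockout and for Asns without Ythdf3_KO replicate B.

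The composite ATF4 element, searched as TGATGNAAN on both strands of the same windows, was present in 11 of 30 list members with a promoter (36.7%) and in 2.58% of all promoters searched. Among the called members with a promoter it was found in 1 of 5, Asns, whose match begins 23 bases before the start and is shown in capitals.
Asns, chr6:7693214-7693242, minus strand: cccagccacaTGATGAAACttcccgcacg
For the actin genes the CArG box, the site of serum response factor, was found in 5 of 24 promoters (20.8%) against 1.69% of all, and in 1 of 8 called members, Cnn2.
Cnn2, chr10:79988534-79988563, plus strand: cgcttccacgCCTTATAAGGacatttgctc

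Chaperones taken as 1 list showed no common direction: of 28 heat shock and endoplasmic reticulum chaperone genes tested, 3 were lower and 2 higher (median 0.00). The 3 lower genes belong to the endoplasmic reticulum and the 2 higher are heat shock proteins outside it, a division seen after the calls and not tested. Hspa5, the lumenal chaperone BiP, had 572, 580, 510 and 567 FPM in Ythdf1_KO and 670, 657, 655 and 671 FPM in Ythdf3_KO, without overlap (-0.25 ± 0.04, adjusted p = 1.31e-07). The disulfide isomerase Pdia6 (-0.27 ± 0.06, adjusted p = 0.00407) and the lumenal HSP90, Hsp90b1 (-0.21 ± 0.06, adjusted p = 0.0103), were lower, and both calls ended without either Ythdf3_KO replicate. Cryab, a small heat shock protein, had 13.2, 12.5, 8.76 and 16.6 FPM against 4.65, 8.01, 6.31 and 5.61 FPM (0.94 ± 0.23, adjusted p = 0.00483), which ended without Ythdf3_KO replicate B. Hsph1, a cochaperone of HSP70, was higher by 0.27 ± 0.07 (adjusted p = 0.0136).

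Differences of cytosolic ribosomal protein transcripts were small: 11 of 78 were lower and 0 higher in Ythdf1_KO, 69 values were below 0, and the median was -0.09. Rpl4 had 2096, 2136, 1953 and 2314 FPM against 2406, 2404, 2396 and 2461 FPM (-0.19 ± 0.02, adjusted p = 3.57e-12), with no overlap. Rps15 (-0.20 ± 0.03), Rplp1 (-0.15 ± 0.03) and Rps20 (-0.13 ± 0.02) followed (adjusted p at most 1.19e-05), and the ranges of Rps15 and Rps20 overlapped. Rps18, Rpl7, Rps26, Rpl18, Rpl19, Rps4x and Rps27a were lower by 0.15 to 0.19 on the log2 scale. The count was 22 with TMM or median scaling, 26 in edgeR and 5 without either Ythdf3_KO replicate, and the call of Rps20 ended without Ythdf3_KO replicate B. Nuclear genes of oxidative phosphorylation showed no common direction: 2 of 74 were higher and 2 lower (median -0.04). Uqcrb of complex III had 258, 270, 289 and 289 FPM against 226, 239, 212 and 220 FPM (0.30 ± 0.06, adjusted p = 1.62e-04), and Uqcrc2 of the same complex was at 45.8 ± 3.50 against 62.4 ± 5.36 FPM (-0.44 ± 0.12, adjusted p = 0.0156). The cytochrome oxidase gene Cox4i1 was higher by 0.14 ± 0.04 (adjusted p = 0.0323) and Cox7a2l, a supercomplex assembly factor, lower (-0.27 ± 0.08, adjusted p = 0.0289). All 4 calls ended without Ythdf1_KO replicate B and in DESeq2, each ended without at least 1 Ythdf3_KO replicate, and that of Cox4i1 also under both other scalings and in edgeR.

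Growth regulators of an imprinted cluster on chromosome 7 gave some of the largest differences. Cdkn1c, the maternally expressed inhibitor of cyclin-dependent kinases p57, had 17.9, 18.8, 13.9 and 17.2 FPM in Ythdf1_KO and 3.48, 4.27, 3.68 and 6.12 FPM in Ythdf3_KO, a difference of 1.75 ± 0.24 (adjusted p = 1.57e-10). Igf2, the paternally expressed growth factor, had from 18.8 to 26.9 FPM in its 4 Ythdf1_KO libraries against 8.71, 4.81, 6.31 and 12.2 FPM, a difference of 1.41 ± 0.19 (adjusted p = 1.57e-10). In both genes the lowest Ythdf1_KO library exceeded the highest Ythdf3_KO library, and the WT means were 7.49 ± 2.04 and 6.22 ± 1.87 FPM. The means in Ythdf2_KO and Triple_KO, also above WT, were 13.4 and 21.4 FPM for Cdkn1c and 25.7 and 33.8 FPM for Igf2. Of 23 imprinted genes tested, 3 were higher and 0 lower (median 0.14). The third, Peg10, a retrotransposon-derived gene, was at 18.3 ± 3.96 against 11.1 ± 2.03 FPM (0.67 ± 0.20, adjusted p = 0.0391), and its call ended under both other scalings and without any 1 of the 4 replicates.

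Targets of p53 and immediate-early genes held a few higher genes each. Of 33 p53 targets 3 were higher (median 0.16). The kinase Plk2 had 50.8, 50, 38 and 39.5 FPM against 32.5, 23.5, 26.3 and 20.4 FPM, without overlap (0.78 ± 0.14, adjusted p = 3.72e-06). Perp was the second, and the third, the apoptosis effector Bax, differed by 0.16 ± 0.05 with overlapping libraries (adjusted p = 0.0323) and lost its call under both other scalings, in edgeR and without any replicate but Ythdf1_KO replicate A. Of 31 immediate-early genes 3 were higher (median 0.05): Ccn1 and the growth arrest genes Gadd45g (1.21 ± 0.28, adjusted p = 0.0023) and Gadd45b (0.67 ± 0.20, adjusted p = 0.0269). Gadd45g averaged 9.49 and 3.51 FPM, so it rests on few reads, and both Gadd45 calls ended without Ythdf1_KO replicate A, without Ythdf3_KO replicate B and without library 4f. That of Gadd45b also ended without Ythdf1_KO replicate B, without Ythdf3_KO replicate A, in edgeR and in fits of these knockouts only or of all 5 genotypes.

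Of 12 germline genes 2 were higher and 1 lower. Khdc3 and Ooep belong to the subcortical maternal complex of the egg and differed in opposite directions. Khdc3 had 14.9, 10.4, 11 and 20.4 FPM against 4.07, 6.41, 6.84 and 8.66 FPM (1.01 ± 0.28, adjusted p = 0.0203). Ooep had 90.1, 102, 92.7 and 103 FPM against 131, 124, 117 and 117 FPM (-0.33 ± 0.09, adjusted p = 0.0206). Both were without overlap, the call of Khdc3 ended without Ythdf1_KO replicate B or Ythdf3_KO replicate A, and that of Ooep without any 1 of the 4 replicates and in DESeq2. The helicase Ddx4 was at 6.23 ± 1.70 against 1.96 ± 1.36 FPM (1.44 ± 0.37, adjusted p = 0.00714), with 1 Ythdf3_KO library at 0. Its Ythdf3_KO mean lay under the filter level. Ddx4 was tested because of its level in other knockouts, Ythdf1_KO among them, which can favour a value above 0. The call of Ddx4 ended without the same replicates as that of Khdc3. Of 18 Wnt pathway genes 2 were higher (median 0.13). Wls, which escorts Wnt proteins out of the cell, was at 8.78 ± 4.48 against 3.64 ± 2.16 FPM (1.11 ± 0.31, adjusted p = 0.0198), and the kinase Gsk3b at 16.4 ± 3.30 against 9.90 ± 4.34 FPM (0.78 ± 0.24, adjusted p = 0.0413). Libraries of both Wnt genes overlapped, and both calls ended when the fit held only these 2 knockouts. The call of Gsk3b also ended under both other scalings, in edgeR, without either Ythdf1_KO replicate and without Ythdf3_KO replicate A, where the difference was 0.44. That of Wls also ended without Ythdf1_KO replicate A, without either Ythdf3_KO replicate and without library 4f.

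Outside the lists, further large differences included higher Thoc2l (12.6 ± 2.34 against 4.69 ± 1.86 FPM, 1.30 ± 0.27, adjusted p = 2.73e-04) and higher Bend4, a BEN domain protein (14.6 ± 1.73 against 6.08 ± 2.49 FPM, 1.21 ± 0.25, adjusted p = 2.32e-04). App, the amyloid precursor protein, was at 14.8 ± 2.47 against 6.98 ± 2.93 FPM (1.05 ± 0.24, adjusted p = 0.00204), and Phldb2, a protein of the cell cortex, at 10.2 ± 3.14 against 4.20 ± 1.84 FPM (1.14 ± 0.30, adjusted p = 0.00984). Among the lower genes, Kbtbd11 had 7.69, 11.1, 3.65 and 3.18 FPM against 13.4, 16.6, 17.9 and 13.8 FPM (-1.27 ± 0.28, adjusted p = 9.25e-04). Replicate B of Ythdf1_KO thus stood below replicate A, and the call ended without it and without Ythdf3_KO replicate B. Exosc1, a subunit of the RNA exosome, had 12.4, 13.2, 11 and 11.5 FPM against 27.3, 20.8, 19.5 and 20.4 FPM (-0.81 ± 0.21, adjusted p = 0.00697). Msmo1 of cholesterol synthesis was at 31.1 ± 3.26 against 50.6 ± 4.85 FPM (-0.68 ± 0.14, adjusted p = 2.28e-04).

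Kansl2 of a histone acetyltransferase complex (-1.02 ± 0.28), the antiviral protein Shfl (-0.95 ± 0.27), the small RNA Rn4.5s (-0.93 ± 0.24) and Nelfb, a subunit of the negative elongation factor (-0.65 ± 0.18), were lower with adjusted p at most 0.0259. These 4 calls and that of Exosc1 ended without Ythdf1_KO replicate B and without Ythdf3_KO replicate A, and the 4 also without Ythdf3_KO replicate B. Without Ythdf1_KO replicate B the difference of Kansl2 was -0.50 and that of Shfl -0.55. The values of Angptl6 (-0.92 ± 0.28) nearly repeat those of Shfl on chromosome 9, so the reads of these genes cannot be told apart. The near-identical H2A histone genes H2ac23 and H2ac24 on chromosome 13 had 134, 124, 69.4 and 180 FPM against 219, 209, 201 and 181 FPM (-0.75 ± 0.07, adjusted p at most 1.49e-21). The Ythdf1_KO values ran over 2-fold between the duplicates of 1 replicate, more than the spread limma gave genes of that level. Of the other named genes, calls ended for Bend4 without Ythdf3_KO replicate A, for App without Ythdf1_KO replicate A, for Msmo1 without Ythdf3_KO replicate A and for Phldb2 without any replicate but Ythdf1_KO replicate B.

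**Figure D3:**
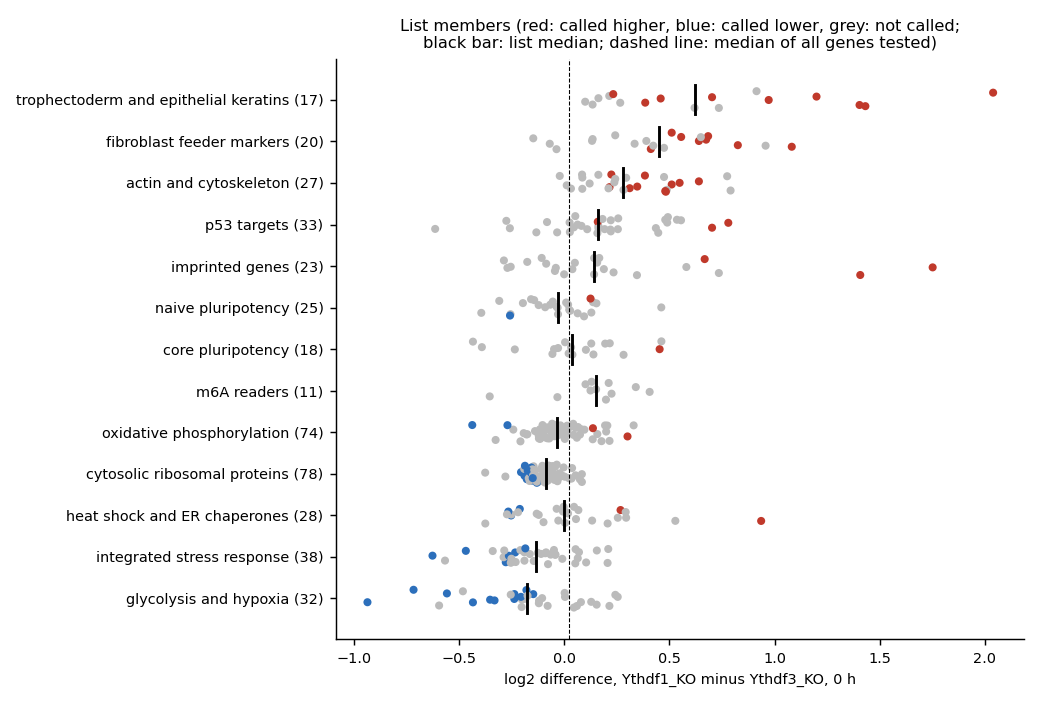
Log2 difference at 0 h (horizontal axis) of every tested member of 13 gene lists (rows, number tested in brackets); red points were called higher in Ythdf1_KO, blue points lower, grey points not called, and black bars are list medians. The keratin, feeder and actin lists lie to the right of the median of all genes (dashed), and the glycolysis, stress response and ribosomal protein lists to its left.

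Other lists held few or no called members. Of 13 genes of endoderm and basement membrane 1 was lower, Apoe, and of 8 neural genes 1 was lower, Stmn2. Of 5 mesoderm genes, 2 genes of the 2-cell-like state, 15 of LIF and STAT3 signalling and 38 of the cell cycle, 0 were called by limma, edgeR or DESeq2, with 1, 0, 1 and 4 at an unadjusted p under 0.05. Over all genes tested, 1143 of 8560 were under that unadjusted p in limma. Hnf4a and Ttr of endoderm, Kdr and Wnt3 of mesoderm and Neurog2 and Gpm6a of the neural list were at 0 in all 8 libraries. The lists summed to 1258 to 1451 FPM in Ythdf1_KO and 1387 to 1440 FPM in Ythdf3_KO for endoderm, to 205 to 238 FPM and 228 to 247 FPM for mesoderm and to 180 to 212 FPM and 211 to 252 FPM for the neural list. Each of the lists for FGF feedback (12 tested), BMP and Nodal signalling (23), cholesterol synthesis (27) and noncoding RNA (22) had 1 called member. These were Phlda1, higher, and Tdgf1, Msmo1 and Rn4.5s, lower. Over all genes tested, 1.53% were called higher and 1.1% lower.

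The libraries taken after 4 and 8 h of actinomycin D were not used at 0 h and gave a second reading of the called genes. They carry the same knockout labels and replicate letters as those at 0 h. A difference between lines or cultures would recur in them, so this reading is not independent. At 4 h (2 libraries per knockout) 41 of 7864 genes were called (0.521%), 34 higher (0.432%) and 7 lower (0.089%), and at 8 h (4 libraries per knockout) 189 of 6915 (2.73%), 183 higher (2.65%) and 6 lower (0.0868%). At 8 h the median of all genes was itself 0.14, and the listed genes held 33.4 ± 1.07% of reads in Ythdf1_KO and 30.6 ± 0.417% in Ythdf3_KO. TMM scaling moved that median to 0.01 and the split to 53 higher and 32 lower, and median scaling to -0.01 with 46 and 41. Signs are therefore given relative to the median of each time. Of the genes higher at 0 h, 113 of 128 tested at 4 h and 105 of 126 tested at 8 h stood above that median, 20 and 49 were called higher again, and 0 were called lower. Of the genes lower at 0 h, 82 of 88 stood below it at 4 h and 69 of 85 at 8 h, 5 and 1 were called lower again, and at 8 h 3 were called higher.

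Krt8, Krt18, Krt19, Igf2 and Cdkn1c were called higher at all 3 times. At 8 h the difference was 1.64 for Krt8, 2.02 for Krt18, 2.05 for Krt19, 1.58 for Igf2 and 1.67 for Cdkn1c (adjusted p at most 2.45e-05), and these 5 calls also held under TMM and median scaling at 8 h. Krt7, the keratin with the largest difference at 0 h, was at 0.39 ± 0.53 at 4 h (adjusted p = 0.887) and at 1.34 ± 0.43 at 8 h (adjusted p = 0.0866). S100a6 (0.99), Acta2 (0.94) and Tagln (0.92) were likewise called at 8 h under all 3 scalings, whereas the call of Actb (0.24) ended with median scaling. Ldha, at -0.31 ± 0.08 at 4 h (adjusted p = 0.0272), was at -0.14 at 8 h (adjusted p = 0.268). The other lower genes called again were Rps20, Rpl37rt and the overlapping pair Fkbp3 and Prpf39 at 4 h and Pgam1 at 8 h. The 3 called in the opposite direction at 8 h were Rplp1 (0.15), Rack1 (0.16) and Tuba1b (0.15), values close to the median of all genes at that time (0.14). A genotype by time term tested the change of the difference from 0 to 8 h directly and called 61 of 8692 genes (0.702%), 59 with a rise relative to Ythdf3_KO (0.679%) and 2 with a fall (0.023%). That split became 15 and 4 with TMM scaling and 5 and 4 with median scaling.

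**Figure D4:**
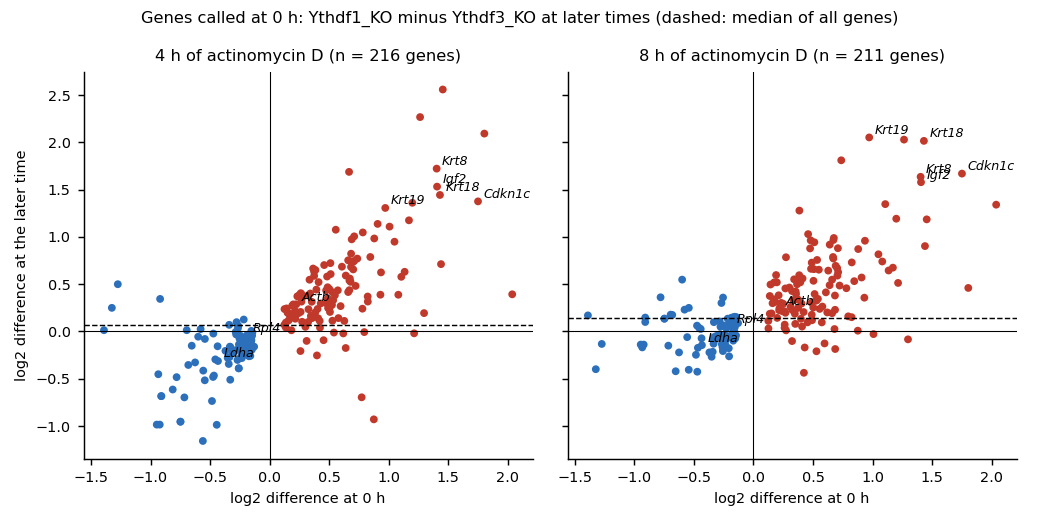
Log2 difference, Ythdf1_KO minus Ythdf3_KO, at 4 h (left) and 8 h (right) of actinomycin D (vertical axes) against that at 0 h (horizontal axes) for the genes called at 0 h, higher in red and lower in blue, with the median of all genes tested at the later time dashed. Krt8, Krt18, Igf2 and Cdkn1c are near the top right at both times, while at 8 h the lower genes lie mostly below the dashed line (69 of 85) and around 0 (median -0.04).

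Genes of chromosome 13 were shifted together. The median log2 difference of the 288 genes tested there was 0.20, and it was 0.20 in each of replicates A and B taken by itself, whereas the medians of the other chromosomes ran from 0.00 to 0.06. Of the 288 genes, 221 stood above the median of all genes, 20 were called higher (6.94%) and 8 lower (2.78%). Plk2, Uqcrb, Ddx4 and Gadd45g, described above, lie on this chromosome, as do the lower H2A histone genes. Less the median of all genes, the shift was 0.17 at 0 h, 0.14 at 4 h and 0.13 at 8 h. Set against WT at 0 h, it was 0.17 in Ythdf1_KO and 0.01 in Ythdf3_KO, comparisons that share the WT libraries with each other and the knockout libraries with the one above.

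**Figure D5:**
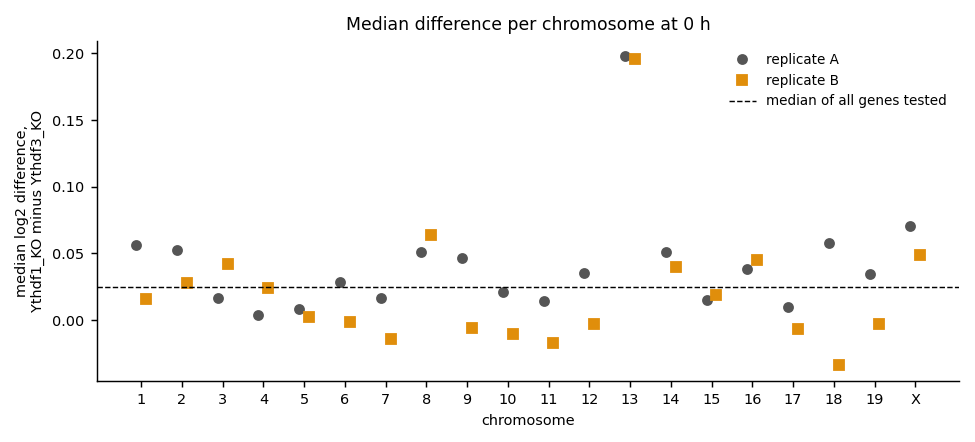
Median log2 difference, Ythdf1_KO minus Ythdf3_KO at 0 h (vertical axis), of the genes tested on each chromosome (horizontal axis), for replicate A (circles) and replicate B (squares), with the median of all genes tested dashed. Chromosome 13 lies at 0.20 in both replicates, above every other chromosome.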

How the data were processed

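The authors deposited 1 table of reads per RefSeq transcript in FPM, that is RPM, for 50 libraries. The genome was mm10 and the tools Bowtie2 and CASAVA 1.8.2, per the submitters' processing notes. The counting program's treatment of strand and of reads with several matches was not given in the sources used here. Gene names came from RefSeq (GRCm38.p6) for 21729 of 22338 transcripts and from a GENCODE annotation for 120. Identical repeats of a gene were dropped (2169) and distinct transcripts summed, which gave 19455 genes. In all libraries 100% of values were whole reads within 0.1 read.

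Duplicates were averaged as log2(FPM + 1), which understates changes of low genes. A gene entered the test once 2 or more replicate means reached 5 FPM, and limma 3.58 (R 4.3, mean-variance trend, Benjamini-Hochberg adjustment, 0.05) was fitted to the 8 replicate means of the 4 knockout genotypes. A gene low in 1 knockout could thus enter through the others. Krt7, Cldn7, Ddx4, Gadd45g, Wls, Cdkn1c and Phldb2, under 5 FPM on average in Ythdf3_KO, entered in this way. Such entry can favour values above 0. Moderation was nearly complete at 0 h, so genes of one level shared 1 spread, and a gene more variable than its level has too small a p. On 8428 genes simulated at 0 h, 89% of differences of 1 and 100% of 2 (log2) were recovered, and 0.170% of unchanged genes were called. The simulation drew every gene with 1 common dispersion and each library independently. Its share of false calls therefore does not carry over to genes more variable than their level. Recovered reads, summed per replicate, were also tested with edgeR 4.0 and DESeq2 1.42. DESeq2 gave no adjusted p for 24 of the named genes, which are left out of its lost calls.

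The members, the 29 gene lists (written from general knowledge) and the rules were chosen with earlier results of these data known. Named genes were the 3 readers, the 12 largest differences each way among called genes without overlap and with at least 10 FPM in one knockout (unnamed models, pseudogenes and genes sharing identical values left out), and up to 4 members by p of each list with at least 2 calls. The other genes named were chosen after their values were seen. List results are counts and medians, with no test.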

Additional observations from a re-analysis of the deposited data

Results flagged for a closer look

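In 4 of the named genes 1 library of a knockout stood apart from the other 3 by more than Dixon's criterion for 4 values, which chance meets in about 1 in 20 groups. The 62 named genes called and the 3 readers were each checked in both knockouts, so 4 is no more than chance would give. Krt18 was highest in 1 Ythdf1_KO library of replicate A (72.3 FPM). Slc16a3 was lowest in 1 Ythdf3_KO library of replicate A (44.3 FPM), still above every Ythdf1_KO library. Msmo1 was lowest in the Ythdf1_KO library 4f (26.3 FPM), and Rpl4 was highest in 1 Ythdf3_KO library of replicate B (2461 FPM). All 4 differences between the knockouts remained called in the fit without 4f.

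For 6 named genes the difference between the knockouts changed from 0 h to 8 h by the genotype by time term of limma. Rplp1 changed by 0.30 (adjusted p = 3.74e-04), Rpl4 by 0.24 (adjusted p = 5.38e-04), Rps15 by 0.28 (adjusted p = 0.00179) and Rps20 by 0.22 (adjusted p = 0.00491), all ribosomal protein transcripts that were lower in Ythdf1_KO at 0 h. The chaperone Hspa5 changed by 0.32 (adjusted p = 0.0128) and Cox7a2l by 0.57 (adjusted p = 0.027). The median of all genes changed by 0.11 over the same time. With TMM scaling Rplp1 alone of the 6 was called (adjusted p = 0.0394), and with median scaling 0 were (adjusted p 0.112 to 0.468).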

How the results depend on the processing

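Of the genes called at 0 h, the count stayed within 1.5 times of 225 with both other scalings, both pseudocounts, a filter of 20 FPM, a fit on the 2 knockouts or on all 5 genotypes, and edgeR. It was 33 without the filter, 56 in DESeq2 and 90 to 205 when 1 replicate was left out. List members called numbered 82, and under these settings 2, 34 and 41 to 69. At 4 h the count of 41 became 62 with TMM scaling, 62 with median scaling, 63 without the filter, 64 in edgeR and 4 to 49 without 1 replicate. At 8 h the count of 189 became 85, 87, 108 and 96 under the same settings, 35 in DESeq2 and 64 to 228 without 1 replicate. The change from 0 to 8 h, 61 genes, became 19 with TMM scaling, 9 with median scaling, 22 in a fit of these 2 knockouts and 11 to 112 without 1 replicate. The cause was not tested. Of 62 named genes called, 56 remained so with TMM scaling, 2 without the filter, 45 without library 4f and 36 to 50 without 1 replicate. Ythdf1 (0.15, not called) was at -0.0194 without Ythdf3_KO replicate A and at 0.32 without Ythdf3_KO replicate B. Where 1 replicate was left out, the lone replicate was assumed to vary like the other groups. The shift of chromosome 13 was 0.14 with a pseudocount of 5, 0.20 without the filter, 0.15 without Ythdf1_KO replicate B and 0.14 without Ythdf3_KO replicate A, fits tried after the data were seen, as was that without 4f. No pairing of samples by the letters A and B was seen: deviations of the same letter correlated at -0.01 between the knockouts. With 2 replicates each and few reads for many genes, that value cannot tell whether a letter marks a shared batch or culture. With a replicate block 227 genes were called (131 higher, 96 lower). Genes near the filter rest on few reads per library, which limits what could be detected there.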

Other observations

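Some called genes outside the lists, picked here after their values were seen and untested as groups, are known for lysosomes or for metal and oxidative stress. The lysosomal genes Ctsd (0.19), Ctsl (0.34), Psap (0.36), Cd63 (0.27) and Laptm5 (0.24) were all higher in Ythdf1_KO than in Ythdf3_KO on the log2 scale. So were the metallothioneins Mt1 (0.17) and Mt2 (0.14), the ferritin heavy chain Fth1 (0.12), heme oxygenase Hmox1 (0.49) and the glutathione transferase Gsto1 (0.70). The protease inhibitor Serpine2 (0.88) and the Hippo regulator Amot (1.46) were higher as well. Among abundant lower genes were Ppia (-0.16), the ribosome-bound Rack1 (-0.16), the transferrin receptor Tfrc (-0.23) and the purine salvage gene Hprt (-0.28). How many genes of each kind did not differ was not counted.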
